A study of Homo sapiens with 49 samples.

Results

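The early transcript response to loss of MYCN was measured in SHEP-21N cells after 4 h of doxycycline, against the same cells at 0 h. The comparison rests on 5 of the 49 samples of the series. The 4 h group has 3 libraries from cells kept for 4 h in medium with doxycycline at 0.2 µg/ml, and the 0 h group has 2 libraries from cells without that exposure. SHEP-21N is a human neuroblastoma line whose MYCN is a TET-off gene, so that MYCN is on without doxycycline and is shut down by it. All groups carry this regulated MYCN and were grown in serum free of tetracycline. Of 23713 entries in each expression table, 11867 genes were tested, those whose mean over the 20 SHEP-21N libraries reached 1 FPKM, with the 92 ERCC spike-in RNAs left out.

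Some features of the model bear on every value. MYCN was under the control of a drug and not of its own promoter. Cells given the drug but lacking the MYCN switch were not analysed here, so an effect of the drug itself cannot be told apart from loss of MYCN. No label says whether the libraries of a group came from separate cultures, so each p-value measures only the spread between these libraries, which may be technical. Columns could be matched to a time but not to a single sample, and the libraries are called by the number at the end of the column name (0, 1 and 2 at 4 h, 1 and 2 at 0 h).

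MYCN is a basic helix-loop-helix leucine zipper factor of the MYC family that pairs with MAX and binds the E-box, whose best-known form is CACGTG. MAX also pairs with the MXD proteins and with MNT, which act as repressors at the same sites. In neuroblastoma, amplified MYCN drives ribosome production, nucleotide supply and cell cycle entry, and marks aggressive disease.

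Expression was given on 2 scales. Unnormalised FPKM (fragments per kilobase of transcript, scaled to the fragments of the library) give a transcript's share of its library, per length. The rescaled FPKM were brought by the authors to a common spike-in level, and with cell numbers determined and spike-ins added at lysis they stand nearer to RNA per cell. Levels are unnormalised FPKM below unless called rescaled. Changes are differences of log2(FPKM + 1), 4 h minus 0 h, which understate the change of weakly expressed genes. A gene was called where limma's moderated test over the 20 libraries gave a Benjamini-Hochberg adjusted p under 0.05. A lower level of a transcript in bulk RNA cannot be told apart from fewer cells holding it.

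The labelled cell type was checked against marker genes. Of 8 mesenchymal markers 7 stood at 1 FPKM or more, led by VIM at 461, 395 and 494 FPKM at 4 h and 469 and 510 FPKM at 0 h, while COL1A2 was below 0.1 FPKM. Their sum ran from 614 to 725 FPKM at 4 h and from 712 to 753 FPKM at 0 h. PHOX2A, a marker of adrenergic neuroblastoma cells, was listed at 0 in all 5 libraries. HAND2 stood between 35.4 and 45.4 FPKM and ISL1 between 3.75 and 4.58 FPKM. Of the blood markers CD3E, HBB and SPI1 were at 0 and CD68 lay between 4.72 and 5.98 FPKM. Of 5 epithelial markers CLDN4 lay between 5.69 and 7.15 FPKM, and EPCAM, CDH1, KRT5 and KRT14 were below 1 FPKM. No Schwann or endothelial marker reached 1 FPKM.

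MYCN RNA was nearly gone at 4 h. The 4 h libraries held 32.0, 24.9 and 31.9 FPKM of it, against 715 and 742 FPKM at 0 h. The rescaled levels were 32.5, 24.5 and 38.9 FPKM at 4 h and 723 and 855 FPKM at 0 h. The groups lay far apart on both scales, and the mean at 4 h was 0.0406 of that at 0 h. The log2 change was -4.58 (SE 0.09, adjusted p = 8.27e-15) on unnormalised and -4.60 (SE 0.22, adjusted p = 1.55e-10) on rescaled values. MYCN had 150 ± 8.59 FPKM at 2 h (SD, n = 3) and 13.8 ± 1.48 FPKM at 6 h (n = 3), so that most of its fall had come by 4 h and a further fall followed. MYCNOS, transcribed from the other strand of the MYCN locus, stood at 0.490, 0.901 and 1.10 FPKM at 4 h and 11.1 and 13.9 FPKM at 0 h. Use of strand in the counting is not stated in the labels, so the MYCNOS value may hold reads of MYCN.

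On the rescaled scale 10 genes were called. Of the tested genes 1 was higher at 4 h (0.00843%) and 9 were lower (0.0758%), which makes 0.0843% in all, while 1578 genes had an unadjusted p under 0.05. Besides MYCN and MYCNOS, the genes called lower with a clear locus were the endothelin-1 gene EDN1, the RNA polymerase I subunit gene CD3EAP (now POLR1G), the MAX partner MNT, the E-box factor TFAP4 and the BMP antagonist NOG. BOD1L1, which protects stalled replication forks, was the gene called higher. All 10 were also called on unnormalised values, in the same direction. Within the fit on rescaled values, MYCN, MYCNOS, ZFX-AS1 and MIR1914 held their call under every alternative run, and EDN1 lost it under 3 of 30 (highest adjusted p with 1 library left out, 0.0145).

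The other rescaled calls were less firm. CD3EAP lost its call without the 0 h library numbered 2, where its adjusted p was 0.192, and NOG lost its call without either 0 h library or without the 4 h library numbered 1. MNT lost its call in 14 of 30 alternatives, TFAP4 in 15 of 30 and BOD1L1 in 21 of 29, each of them also without either 0 h library and without the 4 h library numbered 0 or 1. The length index, described with the long transcripts, is a measure taken from the values of each library. With it as a covariate only MIR1914, MYCN, ZFX-AS1 and MYCNOS were called.

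On unnormalised values 1880 genes were called higher at 4 h (15.8%) and 2142 lower (18.1%), 33.9% in all. All 3 libraries at 4 h lay above both at 0 h for 21% of tested genes and below both for 27.1%, and on rescaled values for 23.1% and 7.01%, so a gap between the groups is common and is read against these shares. The count depends on the libraries. It was 416 without the 0 h library numbered 2, and 2619, 1535 and 6057 without the 4 h libraries numbered 0, 1 and 2. A fit on the 5 libraries alone, which does not borrow the spread of the other times, called 12 genes, of which MYCN, MYCNOS, EDN1 and ZFX-AS1 are described here and the other 8 are small RNAs, MIR1914 among them. For this reason the account of gene groups gives 2 counts. The first is of all calls, and the second is of genes called in the same direction also without each of the 5 libraries in turn and with the length index as a covariate, called the stable calls below. There were 113 stable calls higher at 4 h (0.952% of tested genes) and 257 lower (2.17%), 3.12% together. The word covers these runs only: of the stable calls, just MYCN, MYCNOS, EDN1, ZFX-AS1 and MIR1914 were also called in the fit on the 5 libraries alone. With only the length index as a covariate, 393 of the 11867 tested genes were called higher and 436 lower. List counts under that covariate are read beside these.

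**Figure D1:**
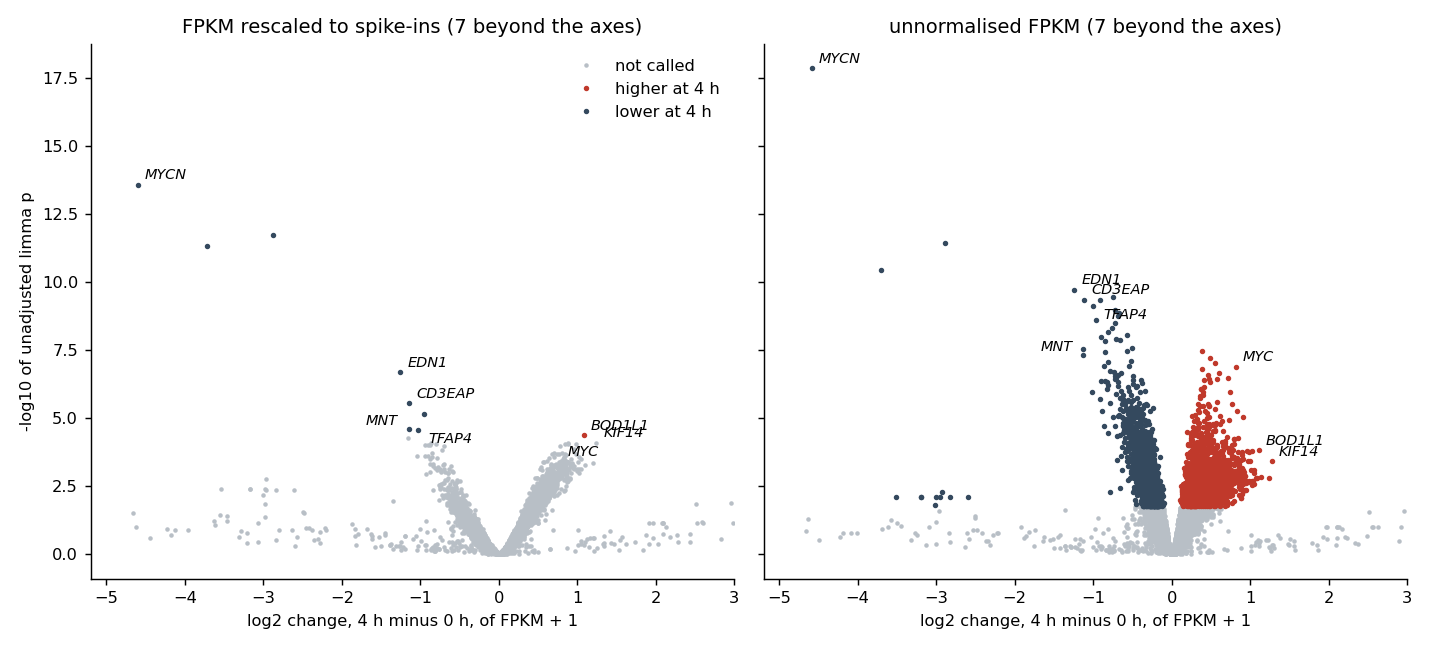
Each point is 1 of the tested genes. The x axis gives the log2 change, 4 h minus 0 h, and the y axis −log10 of the unadjusted limma p, on rescaled FPKM (left) and unnormalised FPKM (right), with called genes in red (higher at 4 h) or dark blue (lower). Called were 10 genes on the left scale and 4022 on the right, with 7 genes beyond the axes of each panel, and MYCN stands far up and to the left in both.

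The promoters of 3 of the genes called lower are shown because MNT and CD3EAP hold the E-box and EDN1 holds none. The sequences are RefSeq's, on GRCh38.p14, from 250 bases before to 50 after the start site, 5′ to 3′ on the gene's strand, with CACGTG in capitals. CACGTG is its own reverse complement, so 1 search covers both strands. The MNT window is chr17:2401011-2401310 on the minus strand, with the motif starting at position -193 from the start site. The CD3EAP window is chr19:45406394-45406693 on the plus strand, with the motif at -12. The EDN1 window is chr6:12287769-12288068 on the plus strand.
MNT: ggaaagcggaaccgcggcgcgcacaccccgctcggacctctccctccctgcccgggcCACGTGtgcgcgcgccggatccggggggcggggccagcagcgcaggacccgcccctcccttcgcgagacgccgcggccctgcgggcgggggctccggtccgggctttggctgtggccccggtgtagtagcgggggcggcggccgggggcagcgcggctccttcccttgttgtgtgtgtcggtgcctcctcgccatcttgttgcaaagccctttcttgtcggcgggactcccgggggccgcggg
CD3EAP: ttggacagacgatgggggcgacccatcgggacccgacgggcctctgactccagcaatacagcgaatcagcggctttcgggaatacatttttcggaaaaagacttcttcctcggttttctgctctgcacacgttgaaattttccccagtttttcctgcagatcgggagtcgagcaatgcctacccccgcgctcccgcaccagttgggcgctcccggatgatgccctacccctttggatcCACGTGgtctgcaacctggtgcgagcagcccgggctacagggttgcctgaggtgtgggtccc
EDN1: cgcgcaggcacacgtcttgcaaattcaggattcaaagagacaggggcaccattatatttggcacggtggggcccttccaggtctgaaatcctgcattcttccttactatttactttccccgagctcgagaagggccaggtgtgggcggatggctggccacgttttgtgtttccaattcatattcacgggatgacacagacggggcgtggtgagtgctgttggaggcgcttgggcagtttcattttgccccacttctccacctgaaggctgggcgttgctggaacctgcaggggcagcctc

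CACGTG was found in 2548 of 35116 RefSeq promoter windows of this length (7.26%). Among tested genes with a window it was in 984 of 9337 (10.5%). It was in 249 of 1718 genes called lower on unnormalised values (14.5%) and in 151 of 1565 called higher (9.65%). Of the stable calls lower, 46 of 192 held it (24.0%), and of the 50 largest falls on unnormalised values, 11 of 35 (31.4%). These shares describe letters in a window and do not show binding. TFAP4, NOG and PLD6 are not shown.

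The list of the MYC and MAX network, which includes MYCN itself, held both rises and falls. Of 25 tested members 4 were called higher and 9 lower at 4 h, with a median change of -0.14, beside 15.8% higher, 18.1% lower and a median of -0.03 over all tested genes. With the length index as a covariate 4 were higher and 6 lower and the median was -0.01, so the shift of the list as a whole did not hold there. The stable calls were 3 rises (MYC, FBXW7 and AURKA) and 5 falls (MYCN, MNT, TFAP4, BHLHE40 and BHLHE41). Over all tested genes 0.952% were stable and higher and 2.17% stable and lower. The fall of MYCN was set by the design. BHLHE40 and BHLHE41 are counted again with the clock genes, and AURKA with the mitotic genes. MNT, which competes with MYC proteins for MAX, stood at 3.60, 2.55 and 3.78 FPKM at 4 h, against 7.93 and 8.71 FPKM at 0 h. All 4 h libraries were below both 0 h libraries (change -1.12, SE 0.11, adjusted p = 2.00e-05). TFAP4, a helix-loop-helix factor known as a direct MYC target, had 12.3, 10.9 and 13.7 FPKM at 4 h and 24.2 and 26.9 FPKM at 0 h. Its mean at 4 h was 0.481 of that at 0 h and the groups did not overlap (change -1.003, adjusted p = 9.91e-07). MAX itself was called lower by a smaller step, with 32.0 FPKM on average at 4 h and 40.5 FPKM at 0 h (change -0.33, adjusted p = 0.00346), and was not a stable call.

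MYC, the paralog of MYCN, moved the other way. It had 5.23, 4.27 and 4.29 FPKM at 4 h, against 2.10 and 2.25 FPKM at 0 h, so that every 4 h library lay above both 0 h libraries. The change was +0.81 on unnormalised values (adjusted p = 4.40e-05) and a stable call, and +0.79 on rescaled values, where it missed the threshold (adjusted p = 0.0751). FBXW7, which targets MYC proteins for degradation, rose as a stable call (change +0.52). AURKA, which stabilises MYCN protein and also acts at the spindle, had 115, 114 and 114 FPKM at 4 h and 90.9 and 85.2 FPKM at 0 h (change +0.37, adjusted p = 1.52e-04).

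**Figure D2:**
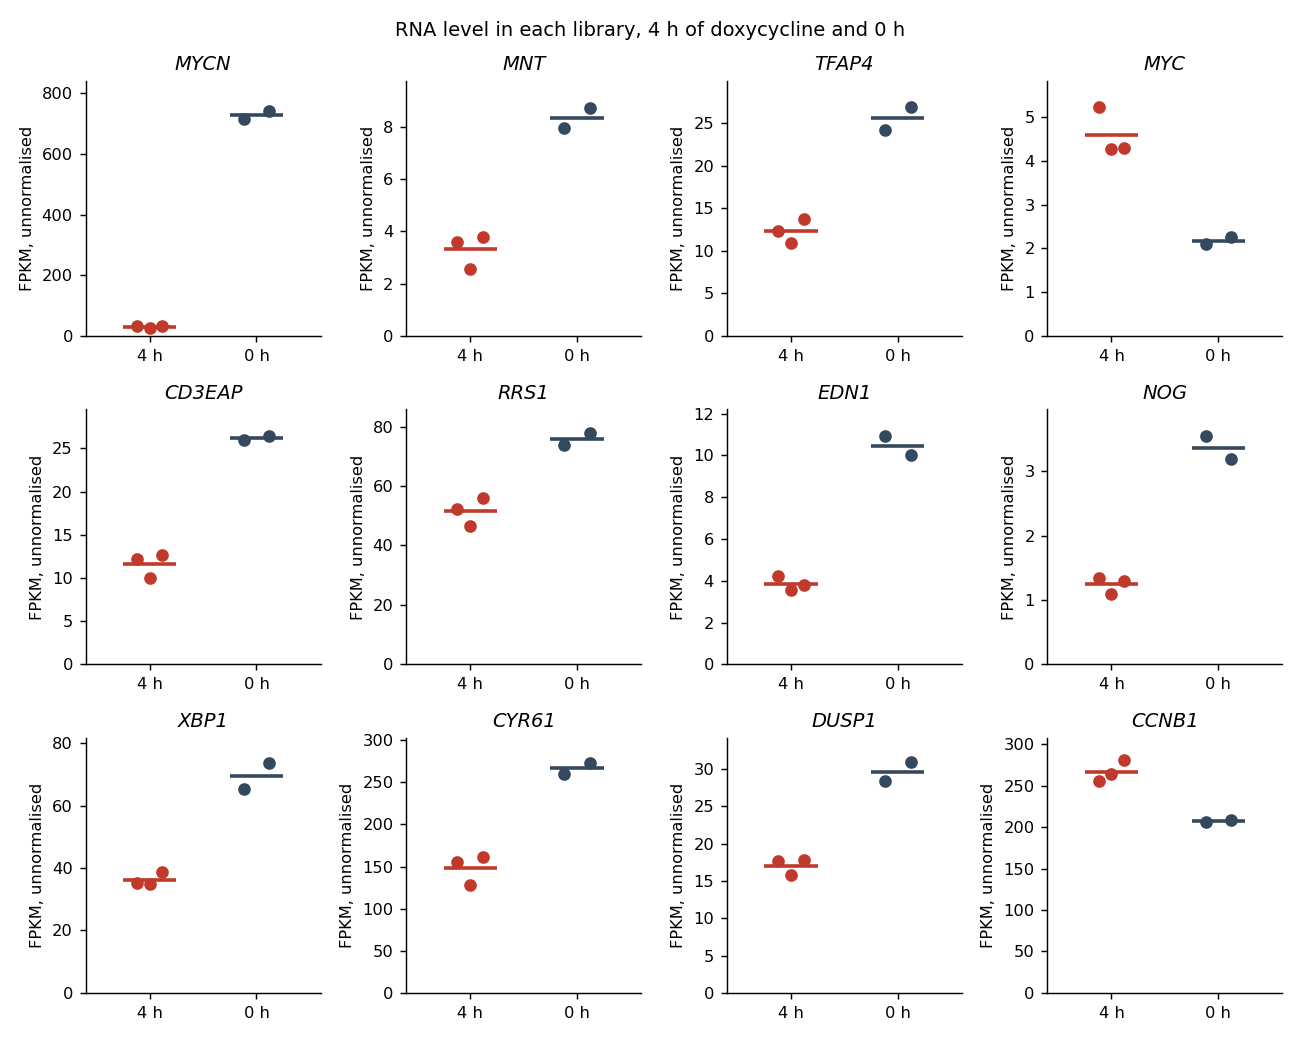
Unnormalised FPKM of 12 genes in each library, with the 3 libraries at 4 h in red on the left and the 2 at 0 h in dark blue on the right of each panel. Horizontal lines are group means and each y axis starts at 0. In all 12 panels the groups do not overlap, and MYC and CCNB1 are the 2 genes that were higher at 4 h.

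PLD6, a mitochondrial phospholipase known as a MYC target, was among the largest falls. It had 4.13, 3.63 and 4.56 FPKM at 4 h and 8.64 and 10.1 FPKM at 0 h (change -1.02, adjusted p = 1.77e-04). KLF16, a GC-box binding factor, stood at 23.2, 18.4 and 24.2 FPKM at 4 h and 38.9 and 44.6 FPKM at 0 h (change -0.90). Both were stable calls. Genes of this ranking were picked for groups that do not overlap, so the gap between the groups adds no support here. On rescaled values both missed the threshold (adjusted p = 0.0747 for PLD6 and 0.0795 for KLF16).

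Of 20 tested genes of RNA polymerase I, which makes the ribosomal RNA precursor, 4 were called higher and 8 lower, with a median of -0.15, beside 15.8% and 18.1% over all tested genes. With the length index as a covariate none was called higher and 4 lower (median -0.06). CD3EAP, a subunit that bridges the polymerase to its initiation factors, had 12.2, 9.99 and 12.7 FPKM at 4 h and 25.9 and 26.5 FPKM at 0 h. Its groups were separated by more than the whole spread within either (change -1.12, SE 0.08, adjusted p = 6.84e-07). POLR1C (change -0.36) and POLR1E (change -0.29) were the other stable calls lower, beside 2.17% stable and lower over all tested genes. TTF1, the termination factor, was called higher with 11.2, 13.4 and 9.96 FPKM at 4 h and 7.57 and 7.31 FPKM at 0 h, but was not a stable call.

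Of 43 tested ribosome assembly factors 6 were called higher and 20 lower (median -0.15), beside 15.8% higher and 18.1% lower over all tested genes. With the length index as a covariate none was called higher and 7 lower (median -0.06). Of the calls, 5 falls and none of the rises were stable, beside 2.17% stable and lower and 0.952% stable and higher over all tested genes. RRS1, which brings 5S RNA into the large subunit, had 52.4, 46.4 and 55.9 FPKM at 4 h, against 73.8 and 77.8 FPKM at 0 h (change -0.55, adjusted p = 1.68e-04). RRP9, a protein of the U3 particle, had 87.0, 82.8 and 100.4 FPKM at 4 h and 116 and 128 FPKM at 0 h (change -0.43). RRP12 (change -0.52) and URB2 (change -0.34) were also stable. For each of these 4 genes all 4 h libraries were below both 0 h libraries.

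Ribosomal proteins and metabolic genes gave few stable calls. The counts are read beside 15.8% called higher, 18.1% lower and 3.12% stable over all tested genes. None of the 46 ribosomal protein genes of the list was called higher and 23 were called lower (median -0.26), and none was stable. RPL28, a ribosomal protein gene outside the list, was a stable fall (change -0.48, and -0.24 with the length index as a covariate). Their median transcript length was 1261.5 bases, beside 3403 over all tested genes, and with the length index as a covariate their median was -0.06 and none was called. Of 38 genes of nucleotide, polyamine and one-carbon synthesis none was called higher and 9 lower (median -0.07). PNP, a purine salvage enzyme, was the stable one, at 57.0, 59.6 and 68.5 FPKM at 4 h and 79.1 and 83.1 FPKM at 0 h. A count of 1 stable call in 38 is near the share over all tested genes. Of 23 glycolysis genes 5 were called lower, a share near that over all tested genes. HK2, hexokinase 2, was stable with 15.6, 14.6 and 14.9 FPKM at 4 h and 21.6 and 22.2 FPKM at 0 h (change -0.52, adjusted p = 3.32e-05). Of the 33 translation factors and tRNA synthetases of the list 2 were called higher and 6 lower, and none was stable. The share called lower is near that over all tested genes. Outside the list, the tRNA synthetase genes MARS2 (change -0.69) and HARS2 (change +0.26) were stable calls.

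Secreted signals and their feedback inhibitors held some of the largest falls. Of 19 tested genes of BMP, TGF-beta and endothelin signalling 3 were called higher and 7 lower (median -0.22), beside 15.8% and 18.1% over all tested genes. With the length index as a covariate 0 were higher and 4 lower (median -0.18). EDN1, a vasoactive and mitogenic peptide, had 4.22, 3.57 and 3.78 FPKM at 4 h, against 10.9 and 10.0 FPKM at 0 h. Its mean at 4 h was 0.369 of that at 0 h, and the groups did not overlap (change -1.24, SE 0.09, adjusted p = 4.44e-07). It was also called in the fit on the 5 libraries alone (adjusted p = 0.0469). NOG, an inhibitor that binds BMP ligands, had 1.35, 1.09 and 1.30 FPKM at 4 h and 3.54 and 3.19 FPKM at 0 h (change -0.96, adjusted p = 2.30e-06).

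TGFB2, a TGF-beta ligand, and SMAD6, an inhibitory SMAD, were the other stable calls of that list. Over all tested genes 2.17% were stable and lower. TGFB2 had 8.49, 9.70 and 7.35 FPKM at 4 h and 13.0 and 11.1 FPKM at 0 h (change -0.46). SMAD6 had 18.8, 18.3 and 18.3 FPKM at 4 h and 23.0 and 23.1 FPKM at 0 h (change -0.30). Inhibitor of DNA binding genes, which are known BMP targets, were called lower too. ID1 had 142, 142 and 161 FPKM at 4 h and 197 and 211 FPKM at 0 h (change -0.45), and ID2 had 41.6, 47.5 and 47.8 FPKM at 4 h and 63.3 and 67.6 FPKM at 0 h (change -0.51). ID1 and ID2 were stable, and ID3 (change -0.41) was called but not stable. Over the 10 tested genes of E proteins and ID proteins 2 were called higher and 4 lower (median -0.13), beside 15.8% and 18.1% over all tested genes. With the length index as a covariate 0 were higher and 3 lower, and the median turned to +0.03.

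Immediate early genes and ERK feedback genes had the 2 lowest medians of the 28 lists. Of 20 tested immediate early and AP-1 genes none was called higher and 15 were called lower (median -0.40), 9 of them stable. The shares over all tested genes were 15.8% higher, 18.1% lower and 2.17% stable and lower. With the length index as a covariate 9 of the 20 were lower (median -0.31). EGR1, an early growth response factor, had 1.75, 1.52 and 2.32 FPKM at 4 h and 3.89 and 4.46 FPKM at 0 h (change -0.86, adjusted p = 0.00104). KLF2 had 4.73, 3.54 and 4.43 FPKM at 4 h and 7.61 and 10.2 FPKM at 0 h (change -0.91). FOSL1, an AP-1 subunit, had 82.2, 64.9 and 89.5 FPKM at 4 h and 115 and 122 FPKM at 0 h (change -0.59), and JUN fell by less (change -0.44).

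Of 16 tested ERK feedback genes none was called higher and 10 were called lower (median -0.46), 6 of them stable. Beside this, 18.1% of all tested genes were called lower and 2.17% were stable and lower. With the length index as a covariate 6 of the 16 were lower (median -0.28). DUSP1, a phosphatase that switches off MAP kinases, had 17.7, 15.8 and 17.7 FPKM at 4 h, against 28.4 and 30.9 FPKM at 0 h. The groups were well apart (change -0.76, adjusted p = 3.86e-06). HBEGF, an EGF receptor ligand, had 15.7, 14.2 and 15.3 FPKM at 4 h and 22.5 and 22.5 FPKM at 0 h (change -0.55). LIF (change -0.64) and EPHA2 (change -0.52) were stable falls as well.

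Targets of YAP and TEAD, the effectors of the Hippo pathway, were called lower in 11 of 23 cases and higher in 3 (median -0.21). There were 6 stable falls and no stable rise. The shares over all tested genes were 18.1% lower, 15.8% higher and 2.17% stable and lower. With the length index as a covariate 0 were higher and 10 lower (median -0.17). TGFB2, counted above with the TGF-beta genes, is 1 of the 6. FJX1 had 14.6, 11.3 and 15.8 FPKM at 4 h and 29.1 and 33.9 FPKM at 0 h (change -1.13, adjusted p = 1.43e-05). CYR61 and CTGF encode matricellular proteins. CYR61 had 155, 128 and 161 FPKM at 4 h and 260 and 273 FPKM at 0 h (change -0.85, adjusted p = 8.40e-06). CTGF had 39.0, 32.0 and 38.8 FPKM at 4 h and 64.7 and 68.4 FPKM at 0 h (change -0.85), and ANKRD1 was lower by a like amount (change -0.83). On rescaled values none of the 23 was called, and the nearest was FJX1 (adjusted p = 0.0535).

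Chaperones and clock genes also held stable falls. Of 28 genes of ER and heat shock chaperones and their regulators 1 was called higher and 15 lower (median -0.19), 6 of them stable. Over all tested genes 15.8% were called higher, 18.1% lower and 2.17% were stable and lower. With the length index as a covariate 0 of the 28 were higher and 8 lower (median -0.15). XBP1, a factor of the unfolded protein response, had 35.2, 34.9 and 38.7 FPKM at 4 h and 65.2 and 73.6 FPKM at 0 h (change -0.92, adjusted p = 6.84e-07). HSPA5, the main ER chaperone, had 173, 170 and 171 FPKM at 4 h and 218 and 212 FPKM at 0 h (change -0.33). Of 12 clock genes 2 were called higher and 6 lower, and 0 higher and 5 lower with the length index as a covariate (median -0.26). PER1 (change -0.86), NR1D1 (change -0.81), BHLHE41 (change -0.62) and BHLHE40 (change -0.43) were among 5 stable falls. NR1D1, a repressor of the clock, had 1.14, 1.26 and 1.55 FPKM at 4 h and 2.78 and 3.33 FPKM at 0 h. SIK1, a salt-inducible kinase, and the neuropeptide precursor VGF, which belong to none of these lists, fell with changes of -0.90 and -0.88.

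Of 21 G1 cyclins, E2F factors and CDK inhibitors 4 were called higher and 6 lower (median +0.03), beside 15.8% and 18.1% over all tested genes. With the length index as a covariate 4 were higher and 2 lower. CCND1, the D-type cyclin of early G1, had 39.7, 34.2 and 37.7 FPKM at 4 h and 52.2 and 52.8 FPKM at 0 h (change -0.49, adjusted p = 7.88e-05). E2F5, a repressive E2F, had 13.5, 13.8 and 12.3 FPKM at 4 h and 19.9 and 19.02 FPKM at 0 h (change -0.53). CCNE2, an E-type cyclin of the G1 to S step, had 11.7, 13.3 and 11.2 FPKM at 4 h and 8.46 and 8.58 FPKM at 0 h (change +0.45), and E2F2 (change +0.53) was also higher. All 4 were stable calls, beside 3.12% stable over all tested genes. Of 32 DNA replication genes 8 were called higher and 3 lower (median -0.02), and 4 higher and 0 lower with the length index as a covariate, where the median was +0.07. Of these, ORC1 of the origin recognition complex was the stable one (change +0.39), and 1 in 32 is near the 3.12% of stable calls over all tested genes.

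Mitotic genes were called higher in 19 of 29 cases and lower in 2 (median +0.34), and 6 rises were stable. The shares over all tested genes were 15.8% higher, 18.1% lower and 0.952% stable and higher. CCNB1 had 256, 264 and 281 FPKM at 4 h, against 206 and 208 FPKM at 0 h (change +0.36, adjusted p = 2.59e-04). CCNB2 had 95.4, 101 and 96.5 FPKM at 4 h and 72.8 and 68.3 FPKM at 0 h (change +0.46). KIF20A, a kinesin of cytokinesis, had 50.03, 53.1 and 47.5 FPKM at 4 h and 37.6 and 34.4 FPKM at 0 h (change +0.47). In these 3 genes, whose transcript lengths of 2169, 2503 and 3201 bases lie below the median of all tested genes, the groups did not overlap. With the length index as a covariate the list had 8 rises and no fall (median +0.26). None of the 29 was called on rescaled values.

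The lists of this paragraph are read beside 15.8% called higher, 18.1% lower and 3.12% stable over all tested genes. Their counts with the length index as a covariate are read beside 393 higher and 436 lower of 11867. Of 26 mesenchymal identity genes 5 were called higher and 9 lower (median -0.10), with COL5A2 (change +0.29) stable and higher and 4 genes stable and lower. ACTA2, smooth muscle actin, fell most of these, with 13.9, 10.98 and 17.1 FPKM at 4 h and 23.8 and 26.3 FPKM at 0 h (change -0.82, adjusted p = 0.00152), and was named after its values were seen. COL6A1 (change -0.59), FOSL2 (change -0.42) and THY1 (change -0.36) were the others, and with the length index as a covariate 2 of the 26 were higher and 4 lower (median -0.03). Of 7 adrenergic genes SLC18A2 was called higher and GATA2 lower (median -0.12), and neither was stable. Of 22 p53 targets 3 were called higher and 6 lower, but 7 higher and 2 lower with the length index as a covariate, with CCNG1 (change +0.40) and PLK3 (change -0.66) stable. Of 20 genes of the integrated stress response 3 were called higher and 5 lower, and DDIT4 (change +0.50) was the stable rise. In 24 cholesterol synthesis genes 3 were called higher and 4 lower, and IDI1 (change +0.36) and DHCR7 (change -0.52) were the stable calls. Among 30 genes of transcription elongation and BET proteins 9 were called higher and 4 lower, and 1 higher and 1 lower with the length index as a covariate. HEXIM1, which holds the elongation factor P-TEFb inactive, was the stable call (change +0.28). Of 30 oxidative phosphorylation genes NDUFB9 was the stable one (change -0.38), with 1 called higher and 4 lower (median -0.17). In each of these lists of 30, 1 stable call is near the share over all tested genes. Interferon response genes (1 higher and 8 lower of 20, median -0.10), lysosome genes (2 higher and 8 lower of 28, median -0.07) and replication histones (0 higher and 1 lower of 23, median +0.02) had no stable call.

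**Figure D3:**
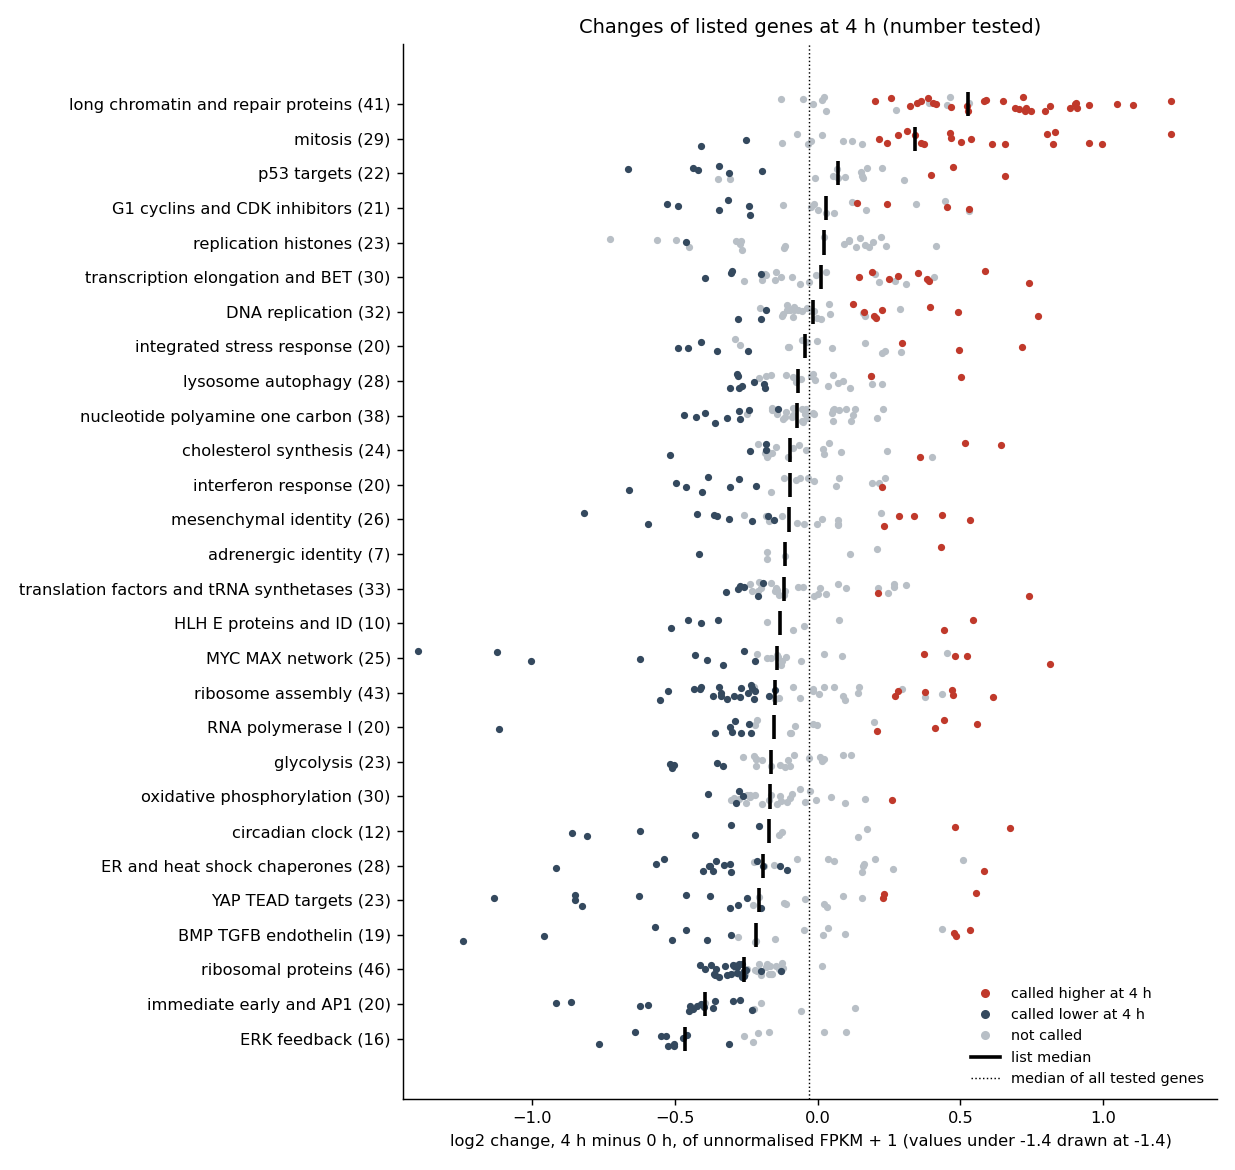
Log2 change, 4 h minus 0 h, of unnormalised FPKM + 1 on the x axis for each tested member of 28 gene lists, with the number tested in brackets. Black bars are list medians and the dotted line is the median of all tested genes (-0.03). ERK feedback and immediate early genes lie lowest (medians -0.46 and -0.40), and long chromatin and repair proteins and mitosis lie highest (medians +0.53 and +0.34).

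With small and uncharacterised RNAs left out, the 15 largest rises among genes called on unnormalised values were of long transcripts. KIF14, a mitotic kinesin, had 12.3, 16.8 and 8.23 FPKM at 4 h and 5.53 and 3.43 FPKM at 0 h (change +1.27, adjusted p = 0.00576). CENPF, a kinetochore protein, had 25.4, 34.9 and 17.3 FPKM at 4 h and 12.5 and 7.93 FPKM at 0 h (change +1.24, adjusted p = 0.0126). In both, the 4 h library numbered 2 was lowest and the 4 h library numbered 1 highest, and the 0 h library numbered 2 was the lowest of all. TPR, BOD1L1, ASPM, CASC5, PIK3C2A, NIPBL, PCM1, KIF20B, RGPD5, AHCTF1, MED13, TAOK1 and ECT2 followed, with changes from +1.13 for TPR down to +1.01 for TAOK1 and a little less for ECT2, and the same order of libraries. RGPD5 has near-identical copies and AHCTF1 has a pseudogene, and the labels do not say how the counting split their reads. None of these 15 genes was a stable call, and each lost its call with the length index as a covariate.

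Transcript length moved with the calls. The median length, from the longest protein-coding transcript of each gene in GENCODE 29, was 5254 bases for genes called higher, 2793 for genes called lower and 3403 for all tested genes. In the class of shortest transcripts (217 to 1950 bases, 1 of 5 equal classes) 2.79% of genes were called higher and 24.4% lower. In the class of longest transcripts (5738 to 34526 bases) 36.4% were called higher and 10.3% lower. The median change ran from -0.15 in the shortest class to +0.16 in the longest. For the stable calls the median length was 3720 bases for genes higher at 4 h and 3299.5 for genes lower.

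The same pattern was seen between libraries of 1 group. A length index was taken for each library as its median log2 deviation in the class of longest transcripts minus that in the class of shortest. It was +0.16, +0.18 and -0.17 in the 4 h libraries numbered 0, 1 and 2, and -0.16 and -0.35 in the 0 h libraries numbered 1 and 2. The 4 h library numbered 2 thus lay beside the 0 h library numbered 1, and the groups overlapped. The index ran from -0.25 to -0.17 at 2 h and from -0.11 to +0.20 at 6 h. It ran from -0.03 to +0.09 at 8 h, from -0.04 to +0.08 at 16 h and from +0.13 to +0.28 at 24 h. It thus moved in part with time, and a fit with it as a covariate may also take out change with time. A list of long chromatin and repair proteins, with a median length of 11964 bases, had 30 of 41 members called higher and none lower (median +0.53). With the length index as a covariate its median was +0.11 and none of the 41 was called. The part of the length index in the result was not tested, and RNA quality values were not used here.

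**Figure D4:**
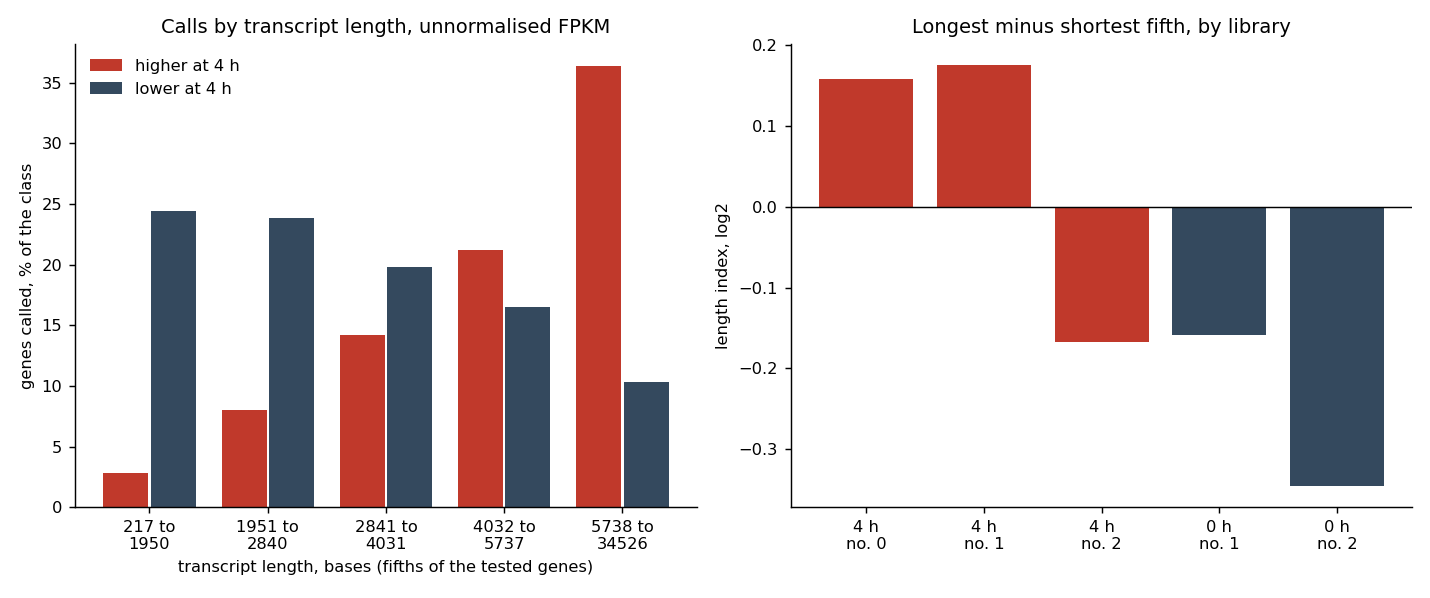
Left, share of genes called higher (red) and lower (dark blue) at 4 h on unnormalised FPKM, in % of each of 5 equal classes of transcript length in bases. Right, the length index of the 3 libraries at 4 h (red) and the 2 at 0 h (dark blue), on a log2 scale. The share called higher runs from 2.79% to 36.4% with length, and the 4 h library numbered 2 (-0.17) lies with the 0 h libraries.

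The spike-in scale allowed the level of the typical gene to be compared, in a test too small to pass a threshold of 0.05. The median of log2(rescaled FPKM + 1) over tested genes was 3.78 ± 0.15 in the 4 h libraries (SD, n = 3) and 3.81 ± 0.09 in the 0 h libraries (n = 2; exact permutation test, two-sided, p = 0.9, where the smallest p this design allows is 0.1). On unnormalised values the medians were 3.684 ± 0.013 at 4 h and 3.676 ± 0.015 at 0 h (exact permutation test, p = 0.6). Rescaled totals ran from 779226 to 1080990 FPKM at 4 h and from 925982 to 1116600 FPKM at 0 h, with the 4 h library numbered 2 inside the range of 0 h and the other two below it. Spike-ins took 3.13% to 4.47% of unnormalised FPKM at 4 h and 3.04% to 3.77% at 0 h. Depth per library is unknown, since read numbers cannot be taken from FPKM.

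ZFX-AS1 and MIR1914, called on both scales, need care. ZFX-AS1 had 10.9, 9.17 and 10.8 FPKM at 4 h, against 148 and 142 FPKM at 0 h (change -3.70, adjusted p = 1.04e-07), and followed MYCN over time, with 50.2 ± 4.94 FPKM at 2 h and 5.34 ± 1.53 FPKM at 6 h. It is antisense to ZFX, and its reads cannot be told apart from those of ZFX if strand was not used. MIR1914 was listed at 0 in the 3 libraries at 4 h, against 640 and 910 FPKM at 0 h. It was at 0 at every other time too, so no fold is given.

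The 2 h libraries, which do not enter the 0 h group, place the changes in time. Against 2 h, 1 gene was called higher at 4 h (0.00843%) and 6 lower (0.0506%) on rescaled values, 0.059% in all. On unnormalised values 582 were higher (4.9%) and 1009 lower (8.5%), 13.4% in all. MNT, NOG, MYCN, MYCNOS, ZFX-AS1 and the lipid transporter MFSD2A were the 6 rescaled falls, and MFSD2A was named after its values were seen. MNT had 3.31 ± 0.66 FPKM at 4 h and 8.95 ± 0.73 FPKM at 2 h (change from 2 h -1.22, adjusted p = 5.91e-06). TFAP4, NOG, PLD6, FJX1 and KLF16 also fell between 2 h and 4 h (changes from 2 h -0.80, -0.89, -1.06, -1 and -0.87). NOG had 3.16 ± 0.06 FPKM at 2 h and 3.37 ± 0.25 FPKM at 0 h, and PLD6 had 9.60 ± 0.77 FPKM at 2 h and 9.37 ± 1.03 FPKM at 0 h.

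A second group had most of its change by 2 h. EDN1 had 3.86 ± 0.33 FPKM at 4 h and 4.81 ± 0.09 FPKM at 2 h, beside 10.5 ± 0.64 FPKM at 0 h. EGR1 had 1.86 ± 0.41 FPKM at 4 h, 2.07 ± 0.19 FPKM at 2 h and 4.18 ± 0.40 FPKM at 0 h, and DUSP1 had 17.1 ± 1.12, 18.7 ± 0.81 and 29.7 ± 1.72 FPKM at these times. From 2 h to 4 h EGR1 (adjusted p = 0.531), DUSP1 (adjusted p = 0.133) and CYR61 (adjusted p = 0.0961) did not pass the test, and EDN1 did (change from 2 h -0.26, adjusted p = 0.0386). MYC had 4.598 ± 0.55 FPKM at 4 h and 2.42 ± 0.40 FPKM at 2 h (change from 2 h +0.71, adjusted p = 5.58e-05), close to its 2.17 ± 0.11 FPKM at 0 h.

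Among the largest of the 582 rises from 2 h were heat shock genes. HSPA1A and HSPA1B, heat shock proteins with near-identical sequences whose reads may be split between them, had 32.7 ± 0.77 and 41.6 ± 1.05 FPKM at 4 h and 18.2 ± 1.31 and 23.3 ± 1.76 FPKM at 2 h. At 0 h they had 37.5 ± 3.38 and 48.3 ± 3.77 FPKM, so that the 2 h libraries were low and those at 4 h lay closer to 0 h. On rescaled values neither was called from 2 h to 4 h (adjusted p = 0.152 for both). DNAJB4, a co-chaperone, had 20.9 ± 4.29 FPKM at 4 h and 10.5 ± 0.49 FPKM at 2 h, beside 13.8 FPKM on average at 0 h. It was the gene called higher on rescaled values (change from 2 h +0.93, adjusted p = 0.0117). EIF3CL, a near-identical copy of EIF3C, ran from 7.32 to 36.3 FPKM at 4 h and from 0.0280 to 4.75 FPKM at 0 h, and its value is uncertain.

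Against 4 h, no gene was called at 6 h on rescaled values (limma, 0%, with 918 at an unadjusted p under 0.05 and 3 called in a fit on the compared libraries alone). On unnormalised values 625 were higher at 6 h (5.27%) and 1224 lower (10.3%), 15.6% in all. MYCN was among those lower at 6 h (limma adjusted p = 3.2e-06). CCND1 had 21.7 ± 0.32 FPKM at 6 h and 37.2 ± 2.75 FPKM at 4 h (change from 4 h -0.75, adjusted p = 1.80e-06). FOSL1 had 44.1 ± 4.39 FPKM at 6 h and 78.9 ± 12.6 FPKM at 4 h (change from 4 h -0.82), and E2F5 had 7.35 ± 0.41 FPKM at 6 h and 13.2 ± 0.77 FPKM at 4 h (change from 4 h -0.76). DDIT4, an inhibitor of mTORC1 (change from 4 h +0.84), DHRS3, a retinaldehyde reductase (+0.87), and CCNE2 (+0.81) were higher at 6 h. DHRS3 had 11.04 ± 1.37 FPKM at 4 h and 9.98 ± 0.86 FPKM at 0 h, a difference that did not pass the test (adjusted p = 0.327). MNT, EDN1, NOG and XBP1 did not pass the test from 4 h to 6 h.

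The later times show which 4 h levels lasted. CD3EAP stayed between 7.11 and 10.0 FPKM on average from 6 h to 24 h, and TFAP4 between 8.75 and 10.1 FPKM, both below their means at 4 h. EDN1 had 3.63 ± 0.33 FPKM at 8 h, 10.8 ± 0.17 FPKM at 16 h and 4.46 ± 0.43 FPKM at 24 h. CYR61 (310 ± 13.0 FPKM), DUSP1 (33.9 ± 1.33 FPKM) and ANKRD1 (62.9 ± 1.52 FPKM) also had means at 16 h above those at 0 h, and fell below them at 24 h. These later means are given as a description, with no test here. Index sequences of the 4 h libraries are used again at 24 h and those of the 0 h libraries at 8 h, per the labels, and none is shared by 0 h and 4 h.

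**Figure D5:**
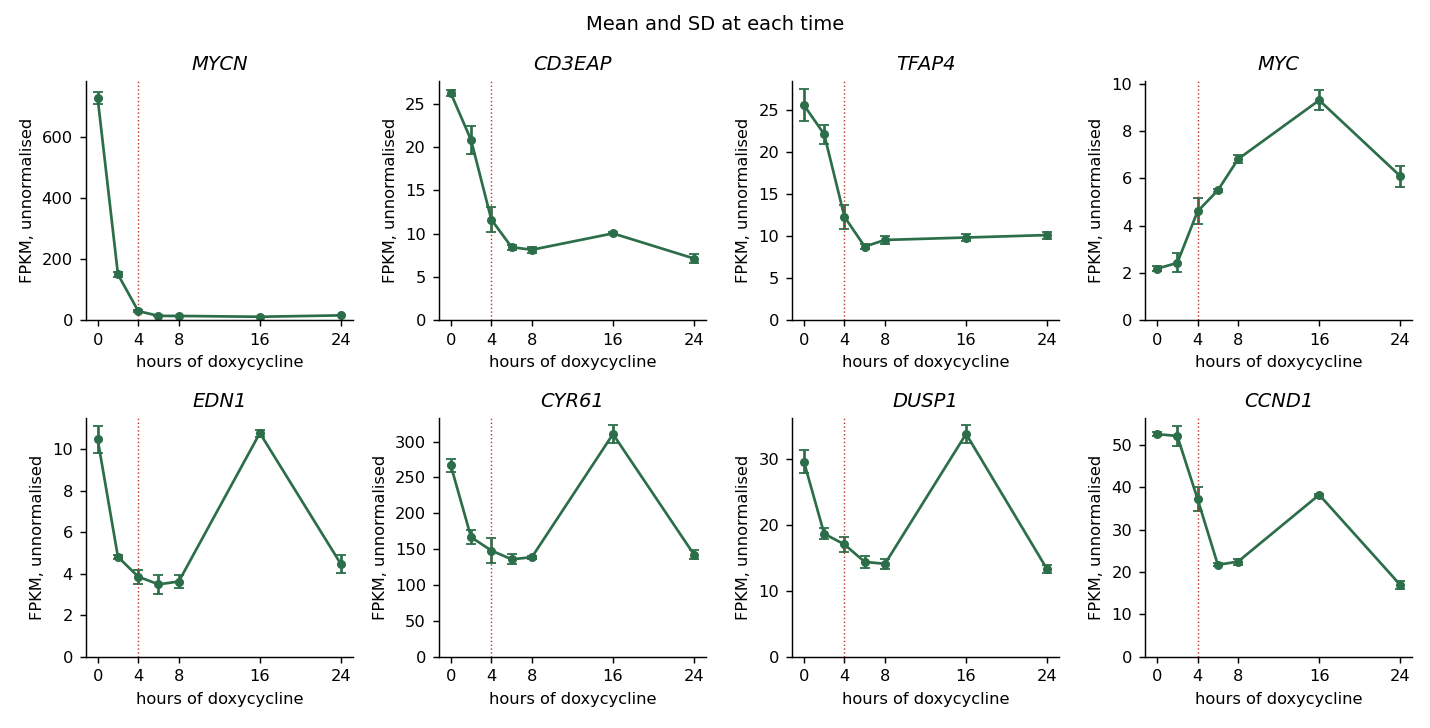
Mean unnormalised FPKM with SD as error bars against hours of doxycycline for 8 genes (n = 2 at 0 h and 3 at each later time), with a dotted line at 4 h. MYCN, CD3EAP and TFAP4 stay low after 4 h, MYC stays above its 0 h mean, and EDN1, CYR61 and DUSP1 stand at 10.8, 310 and 33.9 FPKM at 16 h, above their means at 0 h.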

How the data were processed

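RNA of SHEP-21N cells was selected for polyadenylated transcripts and made into stranded libraries, per the labels' protocols. The submitters' processing notes name HISAT, Cufflinks 2.0.0 and the build hg19. From these the authors deposited 1 FPKM table without normalization and 1 on a scale set by the spike-ins, and the sources used here do not describe the steps of that rescaling. Entries at 0 in the first stand near 0.1 in the second, so rescaled values near 0.1 are no evidence of expression.

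Tests used limma 3.58.1 in R 4.3.3, and figures Python 3.11.15. Genes with a mean unnormalised FPKM of 1 or more were fitted as log2(FPKM + 1) with 1 mean per time in all 20 libraries (7 times), since 0 h has 2, with an intensity trend, and p adjusted by Benjamini and Hochberg over 11867 genes. The script was tested on simulated data. Genes named are MYCN, all rescaled calls, the 15 largest rises and falls of unnormalised calls whose groups do not overlap (small and uncharacterised RNAs left out), for each list at most 4 members, those of smallest p, and at most 5 rises and falls for 4 h against 2 h and for 6 h against 4 h. Not all genes so chosen are described: those of lists with no or few stable calls, histones and other close copies are left to the counts. ACTA2, FBXW7, MAX, MFSD2A, RPL28, MARS2 and HARS2 were chosen after their values were seen. The comparison, the 32 gene lists and the tests were chosen with earlier results of these data known. Transcript lengths come from GENCODE 29, and no coordinate of hg19 is used.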

Additional observations from a re-analysis of the deposited data

How the results depend on the processing

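The fall of MYCN kept its direction and its call in every alternative run, with changes from -4.75 to -4.43 on rescaled and from -4.64 to -4.47 on unnormalised values as single libraries were left out. No named gene reversed: 3933 values of named genes under the alternatives kept their side of the threshold and 625 no longer passed it. Only genes already called entered these counts. Leaving out a library of another time does not move the change from 0 h, so no reversal could come from those runs. The number of genes called moved far more. For 4 h against 0 h on rescaled values (10 genes) it was 58 with a pseudocount of 0.1, 3218 after centring on library medians, 4 with the length index as a covariate and 4022 on the unnormalised table. Leaving out 1 library gave 7 to 197, with 51 without the 4 h library numbered 2, 35 and 195 without those at 6 h numbered 1 and 2, and 197 without that at 16 h numbered 0. On unnormalised values (4022) it was 12 in a fit on the 5 libraries, 829 with the length index, 293 without both 4 h libraries numbered 0 and 1, and 416 to 6057 with 1 library left out; 596 and 281 of the calls were shared with the length index and without the pair. The length index and the pair were chosen as alternatives after seeing the data. For 4 h against 2 h, the 7 rescaled calls were 11 without a filter, 4 with a filter of 5 FPKM, 1004 after centring and 3 to 84 with 1 library left out. The 1591 unnormalised calls were 12 in a fit on the compared libraries, 472 with the length index and 476 to 5177 with 1 left out, lowest without the 4 h library numbered 1 and highest without that numbered 2. For 6 h against 4 h, the 0 rescaled calls were 1274 after centring, 3 in a fit on the compared libraries, 86 with the length index and 0 to 3 with 1 left out. The 1849 unnormalised calls were 3, 3968 and 808 to 3260, lowest without the 4 h library numbered 0 and highest without that numbered 1. The median difference of unnormalised library medians at 4 h, 0.00807, was 0.0866 without a filter. The cause was not tested. Depth is unknown, so the precision rests on 3 and 2 libraries.

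The 0 h and 4 h columns share 2 trailing numbers, and nothing shows that these pair the samples: deviations of like-numbered libraries correlated at 0.0126 and 0.181 on rescaled values, across genes. With the number as a replicate block 7 rescaled and 3277 unnormalised genes were called for 4 h against 0 h, and 989 unnormalised genes for 4 h against 2 h.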
